A study of Mus musculus with 10 samples.

Results

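The genes described here were Cdk6, Rb1, Hmga2, Ccnd1 and Ccnd2, 5 genes of G1 control and growth, chosen by name. Every peak listed with one of these symbols was taken from the deposited tables, 22 of 44925 peaks for H4K20me1 and 37 of 51322 peaks for elongating RNA polymerase II (Pol II S2P). All 5 genes were among the 14565 genes with an H4K20me1 peak, and all but Ccnd2 were among the 11251 genes with a Pol II S2P peak. The study used satellite cells, the stem cells of skeletal muscle (MuSCs), grown in culture and assayed by CUT&RUN, in which an antibody tethers a nuclease to chromatin and the fragments cut free are sequenced. H4K20me1 is histone H4 with 1 methyl group on lysine 20, and Pol II S2P is the polymerase phosphorylated on serine 2 of its tail, the form that travels along gene bodies. Both genotypes carried Pax7CreERT, a tamoxifen-inducible Cre driven by the satellite cell gene Pax7, and both were treated with tamoxifen. Ctrl cells were Pax7CreERT/Suv4-20h1WT and sKO cells were Pax7CreERT/Suv4-20h1KO, where Suv4-20h1 is the older name of Kmt5b, whose enzyme adds further methyl groups to H4K20me1. Cells were isolated from adult mice with magnetic beads and expanded in culture before the assay. Each antibody had 2 libraries per genotype, which the study's reporting notes call biological replicates without saying whether they came from separate animals or cultures, so every p-value below measures the spread between these libraries. In a culture of mixed cells, fewer cells of one kind and less signal per cell cannot be told apart.

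These genes meet at the decision to leave G1. The D-type cyclins, here Ccnd1 and Ccnd2, are made in response to growth signals and activate the kinase CDK6 or its relative CDK4, and the kinase phosphorylates RB1, the retinoblastoma protein, which otherwise holds E2F transcription factors in check. Hmga2 encodes a chromatin protein that bends AT-rich DNA, is abundant in growing and embryonic cells and is kept low in many adult tissues by let-7 microRNAs. In muscle, activated satellite cells pass through these steps as they re-enter the cell cycle, and RB1 is needed again when myoblasts stop dividing to form fibres.

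Promoter sequences were in the RefSeq table (build GRCm38.p6, 250 bases before to 50 bases after the start) for 2 of the 5 genes, Cdk6 and Hmga2, and both are shown because a Pol II S2P peak lay on them. The Cdk6 promoter is that of the principal transcript, which begins at position 3343893, inside the gene interval of the deposited table. Below them are the central 300 bases of the Pol II S2P peak with the highest mean score in each of these genes, read from the same build. All are written 5′ to 3′ on the strand of the gene, and capitals mark a match to one of 8 motifs searched on both strands: TTTGGCGC, TTTCGCGC and TTTCCCGC for E2F, GGGCGG for the GC box, TATAAA for the TATA box, TGACGTCA for CRE, TGACTCA for AP-1 and CACGTG for the E box.
Cdk6 promoter, chr5:3343643-3343942, plus strand: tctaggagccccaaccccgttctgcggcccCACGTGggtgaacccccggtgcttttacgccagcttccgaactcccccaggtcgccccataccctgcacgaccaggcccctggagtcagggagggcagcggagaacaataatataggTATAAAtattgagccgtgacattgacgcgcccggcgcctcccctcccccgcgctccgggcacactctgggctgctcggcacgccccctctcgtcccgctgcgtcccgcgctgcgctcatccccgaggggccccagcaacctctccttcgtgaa
Hmga2 promoter, chr10:120476420-120476719, minus strand: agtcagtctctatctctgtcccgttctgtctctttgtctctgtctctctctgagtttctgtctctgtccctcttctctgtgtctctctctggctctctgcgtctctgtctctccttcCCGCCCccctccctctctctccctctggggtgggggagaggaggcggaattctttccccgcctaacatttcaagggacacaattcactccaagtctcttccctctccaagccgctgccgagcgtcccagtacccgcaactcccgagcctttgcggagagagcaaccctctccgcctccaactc
Cdk6 intron 5 peak, chr5:3494480-3494779, plus strand: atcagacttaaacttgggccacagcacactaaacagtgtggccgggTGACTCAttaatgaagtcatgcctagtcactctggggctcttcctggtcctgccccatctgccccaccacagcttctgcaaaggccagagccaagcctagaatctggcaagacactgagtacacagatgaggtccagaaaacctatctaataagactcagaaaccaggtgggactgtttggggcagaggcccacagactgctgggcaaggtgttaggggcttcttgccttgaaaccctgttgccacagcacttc
Hmga2 intron 3 peak, chr10:120422545-120422844, minus strand: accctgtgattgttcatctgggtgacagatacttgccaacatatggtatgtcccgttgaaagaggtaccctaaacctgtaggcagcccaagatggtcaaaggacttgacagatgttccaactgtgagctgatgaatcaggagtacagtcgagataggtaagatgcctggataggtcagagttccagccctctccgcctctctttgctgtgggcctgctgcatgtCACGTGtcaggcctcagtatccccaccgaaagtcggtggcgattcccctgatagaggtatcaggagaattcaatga
The Cdk6 promoter held a TATAAA beginning 103 bases before the start and a CACGTG beginning 220 bases before it, and the Hmga2 promoter held a GC box on the opposite strand. Over 32851 promoters of the same length, TATAAA was present in 13.6%, CACGTG in 7.15% and GGGCGG in 35.7%. None of the E2F letter strings, at least one of which was present in 1.85% of promoters, was in either promoter. The Cdk6 promoter was GC-rich, at 66.7% against a median of 52.7% over all promoters, and held 27 CpG dinucleotides. In the gene-body windows, the Cdk6 peak held an AP-1 motif, present in 15.3% of the 50698 windows cut in the same way from autosomal Pol II S2P peaks, and the Hmga2 peak held an E box, present in 4.51% of them. The windows cut in the same way from the Rb1 and Ccnd1 peaks held none of the 8 motifs and are not printed. A match of letters is a description of the window and not a bound site.

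All values below are scores, the whole numbers deposited for each peak and library, which the study's methods describe as coverage normalised to spike-in DNA (a scale that was not checked here against spike-in reads), and a gene's score is the sum over its peaks. The total score of a library lay between 15218720 and 20432644 for Ctrl and between 32194136 and 35046570 for sKO with H4K20me1. For Pol II S2P it ran from 3257665 to 4885638, with sKO replicate 2 between both Ctrl libraries. For each antibody the 4 libraries were also set to equal totals, and the H4K20me1 fold changes of the 5 genes and of the peaks named are given on both scales, since the deposited scale moved the median of all genes to a log2 fold change of 1.11 for H4K20me1. Differences were tested with limma, and a gene or peak is said to be called where its adjusted p was under 0.1 and its log2 fold change lay beyond 0.5 in either direction. Peak coordinates are those of the tables on GRCm38, and exons are counted in the principal GENCODE M21 transcript. Among marker genes of satellite cells and myoblasts, Pol II S2P peaks were listed with 5 of 7 (Pax7, Myod1, Des, Itga7 and Vcam1, with summed scores of 4753 to 5221 for Ctrl and 3683 to 5571 for sKO) and none was listed with Myf5 or Cdh15. Within that sum Myod1, the myoblast transcription factor, had 1329 and 1110 in the Ctrl pair against 887 and 649 in the sKO pair, with both sKO libraries below both Ctrl libraries (log2 fold change -0.68, limma adjusted p = 1, and called lower on equal totals at -0.82 with limma adjusted p = 4.06e-04). Of the other lists, 1 of 4 muscle fibre markers (123 to 163 in Ctrl and 173 to 276 in sKO), 1 of 3 endothelial (82 to 119 and 84 to 147), 2 of 3 leukocyte (900 to 997 and 874 to 1368) and 1 of 3 fibro-adipogenic markers (72 to 77 and 50 to 82) had a peak, and their part in the results was not tested. Kmt5b itself scored 24, 62, 48 and 22 for Pol II S2P with Ctrl replicate 1, Ctrl replicate 2, sKO replicate 1 and sKO replicate 2, groups that overlapped. The peaks were not placed relative to the deleted part of the gene, so these values do not check the genotype.

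H4K20me1 was higher in sKO than in Ctrl MuSCs over all 5 genes on the deposited scale, by 1.81 to 2.53 times. Of the 13750 genes tested, 92.3% were called higher, so the rise of the 5 genes was that of nearly every gene. Rb1 stood above the median log2 fold change of all genes, by 0.23, and the other 4 stood below it (-0.24 in Cdk6, -0.19 in Hmga2 and -0.07 in Ccnd1 and Ccnd2 relative to the median). When the libraries were set to equal totals none of the 5 was called.

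Rb1, which encodes the brake on E2F, lay at chr14:73183673-73325822 on the minus strand and had 6 peaks covering 73.0% of the gene. Its H4K20me1 score was 1908 and 2432 with Ctrl cells, rising to 5174 and 5805 with sKO cells. Both sKO libraries were above both Ctrl libraries, as they were for 96.5% of genes tested. The log2 fold change was 1.35 (SE 0.282, limma adjusted p = 6.67e-06), 0.23 above the median of all genes. On equal totals it was 0.42 (SE 0.0592, limma adjusted p = 1.78e-08), which did not reach the limit of 0.5. By share of the library, Rb1 held 0.125 and 0.119 per mille of the total score in Ctrl and 0.161 and 0.166 per mille in sKO.

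Cdk6, the kinase partner of the D cyclins, lay at chr5:3341485-3531008 on the plus strand with 8 peaks over 52.2% of the gene. It had scores of 2197 and 2943 in the Ctrl pair against 4512 and 4797 in the sKO pair, and the groups did not overlap. The log2 fold change was 0.87 (SE 0.282, limma adjusted p = 0.00286). On equal totals it was -0.06 (limma adjusted p = 0.409), and the share of the library was close in all 4 libraries, from 0.137 to 0.144 per mille.

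Hmga2, the chromatin protein gene, lay at chr10:120361275-120476469 on the minus strand with 6 peaks over 74.1% of its length. Its scores were 2292 and 2392 with Ctrl cells and 4281 and 4574 with sKO cells, with no overlap between the groups. The difference was 0.92 on the log2 scale (SE 0.282, limma adjusted p = 0.00167), and -0.01 (limma adjusted p = 0.898) on equal totals. Its 3′ part overlaps the noncoding genes 1700006J14Rik and 9230105E05Rik, and the Rb1 3′ end likewise overlaps Rcbtb2, so part of these scores cannot be assigned to 1 gene.

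The D cyclin genes each had a single peak. Ccnd1 (chr7:144929931-144939925, minus strand) had scores of 246 and 261 in the Ctrl pair against 572 and 480 in the sKO pair, which gave 1.05 as the log2 fold change (SE 0.281, limma adjusted p = 3.69e-04). Ccnd2 (chr6:127125162-127152193, minus strand) had 1544 and 2345 in the Ctrl pair against 3720 and 4133 in the sKO pair, which gave 1.04 as the log2 fold change (SE 0.280, limma adjusted p = 3.56e-04). Neither pair of groups overlapped. On equal totals the log2 fold changes were 0.12 for Ccnd1 and 0.11 for Ccnd2 (limma adjusted p = 0.564 and 0.139), beside 24.1% of all genes called higher and 4.31% called lower on that scale. The Ccnd2 peak was 75.2 kb long and only a fraction of 0.4 of it lay in Ccnd2, the rest reaching over Tigar and several noncoding genes, so its score cannot be credited to Ccnd2 alone. A fraction of 0.6 of the Ccnd1 peak lay in Ccnd1, and the rest reached over the neighbouring gene LTO1.

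**Figure D1:**
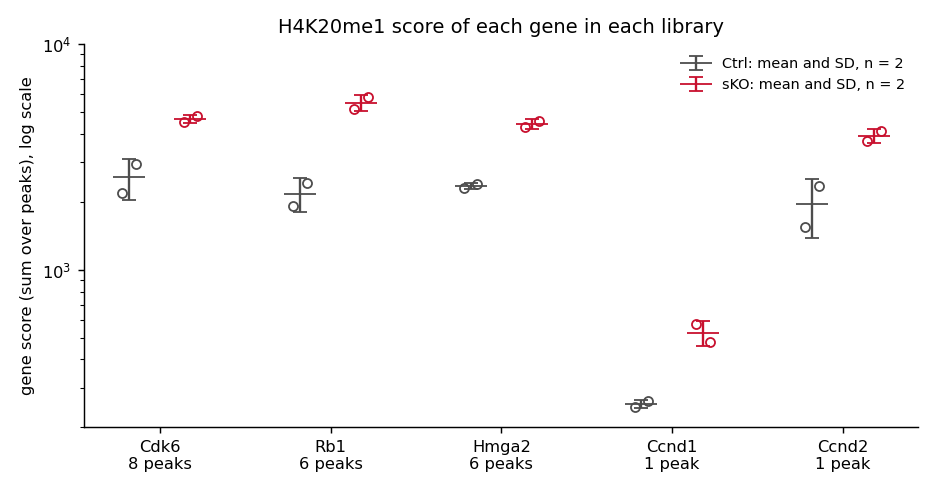
H4K20me1 score of each gene (sum over its peaks, log axis) in each library, with open circles for the libraries and bars for the mean and SD of the 2 libraries of a genotype. All sKO circles lay above all Ctrl circles of the same gene, and Ccnd1, at 246 to 572, lay below the others.

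Divided by the length of their peaks, the H4K20me1 levels of the 5 genes lay close together. In Ctrl the score per kb of peak was 27.0 ± 1.13 for Ccnd1, 25.9 ± 7.53 for Ccnd2, 25.2 ± 0.760 for Hmga2, 25.05 ± 5.14 for Cdk6 and 20.9 ± 3.57 for Rb1 (SD, n = 2), and the libraries of each neighbouring pair in this order overlapped. In sKO the order was Ccnd1 (56.0 ± 6.92), Rb1 (52.9 ± 4.30), Ccnd2 (52.2 ± 3.88), Hmga2 (47.6 ± 2.23) and Cdk6 (45.4 ± 1.96), again per kb. Rb1 thus went from the lowest place in Ctrl to the second place in sKO. Of neighbours in the sKO order, only Ccnd2 and Hmga2 did not overlap across libraries, at 49.5 or more against 49.2 or less. Within each sKO library Rb1 stood above Ccnd2 and Hmga2 above Cdk6, while Ccnd1 stood above Rb1 in sKO replicate 1 only. Rb1 was the lowest of the 5 in each Ctrl library, at 18.4 and 23.4. The median over all genes tested was 23.2 per kb in Ctrl and 50.3 in sKO.

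The calls, more than the sizes of the changes, depended on both sKO libraries being present. Without sKO replicate 1 only Rb1 was still called (log2 fold change 1.43, limma adjusted p = 0.0683), and without sKO replicate 2 only Ccnd1 was (1.17, limma adjusted p = 0.0764). The log2 fold changes themselves stayed between 0.83 and 1.43 in those fits, in which the remaining sKO library was assumed to vary like the Ctrl pair. With either Ctrl library left out they ran from 0.66 for Cdk6 to 1.52 for Rb1.

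Within the genes, the gain was not even. Of the 22 H4K20me1 peaks, 21 were called higher, beside 90.1% of the 40902 peaks tested, and in the same 21 both sKO libraries were above both Ctrl libraries, beside 93.9% of all peaks tested. With either sKO library left out, fewer of the 22 were called. On equal totals 3 of the 22 were called higher, 1 each in Cdk6, Rb1 and Hmga2, beside 25.9% of all peaks. Each of these 3 was the peak with the lowest Ctrl score per kb in its gene, a value that enters the fold change itself. Over the 22 peaks the mean score per kb lay between 12.6 and 30.7 for Ctrl and between 34.5 and 56.8 for sKO, a range of 2.44 times in Ctrl and 1.65 times in sKO. For all peaks tested the middle 50% lay between 17.8 and 26.7 per kb for Ctrl and between 44.4 and 53.6 for sKO.

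In Cdk6 the difference was smaller over the first part of the gene than near its 3′ end. The first peak, in intron 2 (chr5:3354600-3376199), had scores of 564 and 654 in the Ctrl pair against 847 and 941 in the sKO pair. The groups did not overlap, and the log2 fold change was 0.56 (limma adjusted p = 0.0477) as deposited and -0.37 (limma adjusted p = 0.00315) on equal totals, short of the limit of 0.5. A peak in intron 5 (chr5:3499400-3504399), centred 160 kb from the start, had 68 and 58 in the Ctrl pair against 240 and 259 in the sKO pair. This peak rose 3.96 times; its log2 fold change was 1.97 (limma adjusted p = 3.06e-06) as deposited and 1.05 (limma adjusted p = 0.00336) on equal totals. The last peak, over exons 6 to 8 and the 3′ end (chr5:3508800-3534599), had 476 and 565 in the Ctrl pair against 1161 and 1342 in the sKO pair, which gave 1.27 as the log2 fold change (limma adjusted p = 1.30e-05) and 0.34 (limma adjusted p = 0.00560) on equal totals, again short of the limit. The first 2 peaks together held 54.2% and 52.8% of the gene's score in Ctrl and 45.9% and 45.7% in sKO. The last 2 peaks held 24.8% and 21.2% in the Ctrl pair against 31.1% and 33.4% in the sKO pair. Neither pair of groups overlapped, but with 2 libraries against 2 the exact permutation test cannot go below p = 0.333 (two-sided), which both shares gave, and the peaks were grouped after their values were seen. The antisense gene Gm42435 lies under the intron 5 peak, and the signal of the pair cannot be told apart there. A peak in intron 3 (chr5:3423400-3427199) was the only one of the 22 not called, with 77 and 146 in the Ctrl pair against 129 and 133 in the sKO pair, which overlapped (log2 fold change 0.30, limma adjusted p = 0.465, and -0.62 with limma adjusted p = 0.117 on equal totals).

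In Rb1 all 6 peaks were called higher. Its longest peak, from exon 3 to exon 11 (chr14:73269800-73317799), had 871 and 1137 in the Ctrl pair against 2505 and 2676 in the sKO pair, which gave 1.38 as the log2 fold change (limma adjusted p = 2.50e-06) and 0.45 (limma adjusted p = 8.78e-08) on equal totals. A peak in intron 17 (chr14:73234800-73242799), which also covers Lpar6, a receptor gene nested in that intron, had 118 and 100 in the Ctrl pair against 351 and 509 in the sKO pair. It rose 3.94 times, which gave 1.95 as the log2 fold change (limma adjusted p = 2.89e-08) and 1.03 (limma adjusted p = 3.19e-05) on equal totals, and its reads cannot be assigned to Rb1 or Lpar6. The 6 peaks had log2 fold changes from 1.06 to 1.95, and from 0.13 to 1.03 on equal totals. On equal totals both sKO libraries were above both Ctrl libraries in 11 of the 22 member peaks, beside 51.1% of all autosomal peaks, and below them in 4, beside 18.1%. By gene, the peaks above were 6 of 6 in Rb1, 2 of 8 in Cdk6, 2 of 6 in Hmga2 and the 1 Ccnd2 peak, and the peaks below were 3 of 8 in Cdk6 and 1 of 6 in Hmga2.

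In Hmga2 all peaks but the 2 at the ends of the gene lay inside intron 3, the long intron that separates the exons of the AT-hook domains from the 3′ exons. The intron 3 peak with the lowest Ctrl level (chr10:120411000-120416799) had 100 and 99 in the Ctrl pair against 292 and 367 in the sKO pair, a rise of 3.31 times (log2 fold change 1.71, limma adjusted p = 3.08e-06, and 0.78 with limma adjusted p = 0.00584 on equal totals). Another intron 3 peak nearer the start (chr10:120434200-120446599) had 348 and 413 in the Ctrl pair against 574 and 533 in the sKO pair. Its log2 fold change was 0.54 (limma adjusted p = 0.0611) as deposited and -0.38 (limma adjusted p = 0.0206) on equal totals, short of the limit. The largest peak, over exons 4 and 5 and the 3′ end (chr10:120353600-120395999), had 1118 and 1155 in the Ctrl pair against 1921 and 2217 in the sKO pair, and changed like the gene as a whole (log2 fold change 0.86, limma adjusted p = 0.00239, and -0.07 with limma adjusted p = 0.506 on equal totals).

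**Figure D2:**
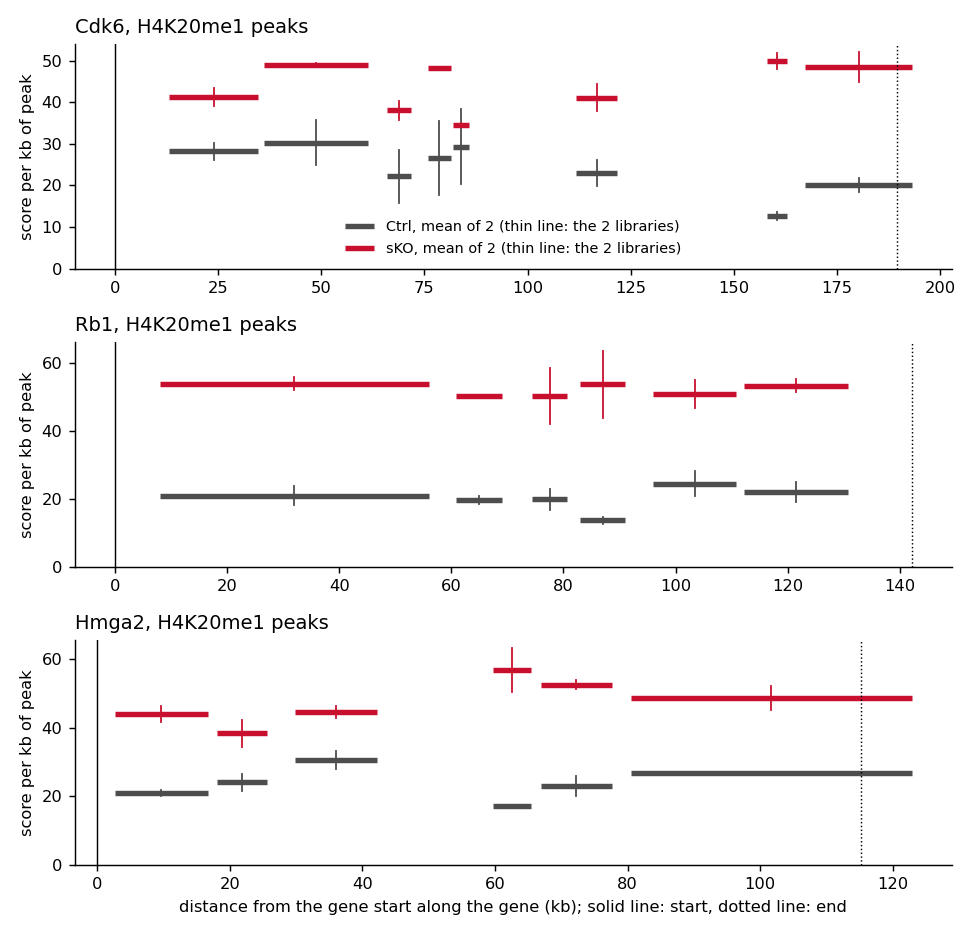
H4K20me1 score per kb of peak (vertical axis) against distance from the gene start in kb for Cdk6, Rb1 and Hmga2. Thick bars span each peak at the mean of the 2 libraries of a genotype and thin lines join the 2 libraries. Ctrl peaks ranged from 12.6 to 30.7 per kb and sKO peaks from 34.5 to 56.8 per kb.

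The gene starts themselves lay outside the H4K20me1 peaks in 4 of the 5 genes. The listed peaks began 2.67 kb from the start in Hmga2, 3.93 kb in Ccnd1, 8.02 kb in Rb1 and 13.1 kb in Cdk6, while the Ccnd2 peak covered its start. Of 11570 protein-coding genes tested, 47.0% had a listed peak over the start. The promoters printed above are therefore outside the H4K20me1 peaks of their genes, whereas a Pol II S2P peak covered 300 of 300 bases of the Hmga2 promoter and 150 of 300 bases of the Cdk6 promoter.

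Pol II S2P over these genes was not called different between Ctrl and sKO MuSCs in any of the 4 genes with peaks, as in 0 (0%) of the 8531 genes tested by limma, of which 100 had an unadjusted p under 0.05. On equal totals none of the 4 was called either, beside 2.12% of all genes. The scores of Hmga2 and Cdk6 were nevertheless higher in both sKO libraries than in both Ctrl libraries, an order seen in 9.41% of genes tested, while those of Rb1 and Ccnd1 overlapped.

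Hmga2 carried the most Pol II S2P of the 5 genes, with 27 listed peaks against a median of 2 per gene tested. Its score was 1436 and 1449 in the Ctrl pair against 2241 and 1705 in the sKO pair, above 96.7% of the genes tested or more in each library. The log2 fold change was 0.44 (SE 0.429, limma adjusted p = 1), and 0.30 (SE 0.112, limma adjusted p = 0.179) on equal totals. Cdk6, with 6 peaks, had 191 and 252 in the Ctrl pair against 341 and 258 in the sKO pair, so that the groups were separated by no more than 6 units between Ctrl replicate 2 and sKO replicate 2 (log2 fold change 0.43, SE 0.412, limma adjusted p = 1).

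Rb1 had 3 peaks, with scores of 147 and 202 in the Ctrl pair against 242 and 185 in the sKO pair. The groups overlapped (log2 fold change 0.29, limma adjusted p = 1). Ccnd1 had 1 peak in intron 3 (chr7:144934780-144935785) with 130 and 147 in the Ctrl pair against 167 and 109 in the sKO pair, which also overlapped (log2 fold change -0.03, limma adjusted p = 1, turning to 0.27 without sKO replicate 2 and to 0.05 without Ctrl replicate 2). Ccnd2 had no listed Pol II S2P peak, and the 1 peak inside its H4K20me1 domain was listed with Tigar. Per kb of peak the Ctrl levels were 138 ± 12.02 for Ccnd1, 125 ± 0.795 for Hmga2, 125 ± 27.8 for Rb1 and 106 ± 20.6 for Cdk6, and in sKO they were 137 ± 40.8, 171 ± 32.8, 152 ± 28.8 and 143 ± 28.0 in the same order (SD, n = 2). Across the 2 sKO libraries these levels overlapped. Within each sKO library Hmga2 was the highest, at 194 per kb in replicate 1 and 148 in replicate 2. Rb1 had 173 and 132 in the same libraries.

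**Figure D3:**
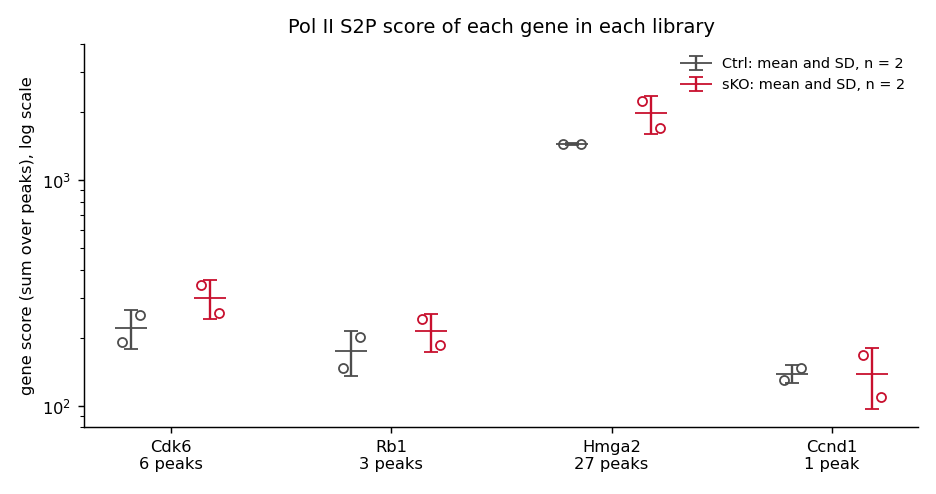
Pol II S2P score of each gene with a listed peak (sum over its peaks, log axis) in each library, with open circles for the libraries and bars for the mean and SD of the 2 libraries of a genotype. Hmga2, at 1436 to 2241, lay above the other 3 genes in every library.

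**Figure D4:**
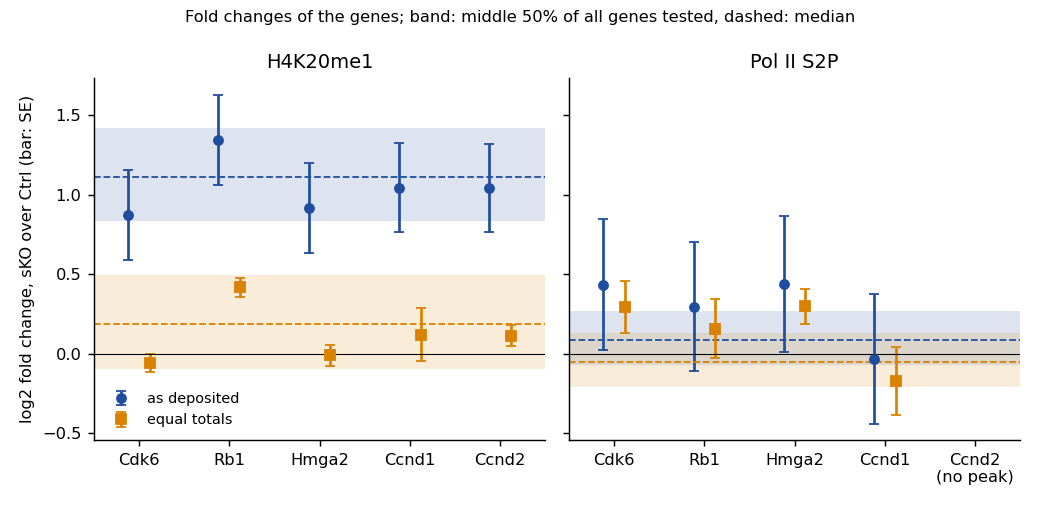
Log2 fold change of each gene, sKO over Ctrl, with its SE, on the deposited scale (circles) and on equal totals (squares), for H4K20me1 on the left and Pol II S2P on the right. Shaded bands give the middle 50% of all genes tested and dashed lines their median, 1.11 and 0.18 for H4K20me1 and 0.09 and -0.05 for Pol II S2P; the H4K20me1 values of the 5 genes lay within the bands, and those of Cdk6, Rb1 and Hmga2 for Pol II S2P lay above them on both scales.

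The Pol II S2P peaks of Hmga2 differed along the gene. The peak over its promoter and exon 1 (chr10:120476319-120476984), whose sequence is shown above, had 104 and 103 in the Ctrl pair against 86 and 77 in the sKO pair, so that both sKO libraries were below both Ctrl libraries (log2 fold change -0.34, limma adjusted p = 1). It was the only one of the 37 member peaks in that order, beside 7.02% of all autosomal peaks. The peaks with the opposite order, both sKO libraries above both Ctrl libraries, numbered 17 of the 27 Hmga2 peaks, or 63.0%, beside 15.6% of all 50698 autosomal peaks. On equal totals the counts were 14 of the 27 above (51.9%, beside 18.7% of all autosomal peaks) and 2 below (7.41%, beside 19.6%). The peaks of 1 gene come from the same libraries and 24 of them lie in 1 intron, so they are not independent of each other. The shares beside these counts are over autosomal peaks of all strengths. None of the 14 member peaks with a mean score over 50 was called, beside 0.0492% of the 22353 peaks tested, nor was any on equal totals, beside 3.70%.

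The order with both sKO libraries above was seen in weak and in stronger Hmga2 peaks, and the rise in summed score was larger in the weak ones. The 17 Hmga2 peaks with a mean score of 50 or less summed to 306 and 308 in the Ctrl pair against 724 and 505 in the sKO pair, a ratio of 2.002, and in 11 of them both sKO libraries were above both Ctrl libraries. The 10 peaks with a mean over 50 summed to 1130 and 1141 in the Ctrl pair against 1517 and 1200 in the sKO pair, a ratio of 1.20. In 6 of these 10 both sKO libraries were above both Ctrl libraries. The weak peaks held 21.3% of the gene's score in each Ctrl library, 32.3% in sKO replicate 1 and 29.6% in sKO replicate 2. One such peak, 208 bases long and centred 35.9 kb from the start (chr10:120440484-120440692), had scores of 7 and 11 in the Ctrl pair against 50 and 18 in the sKO pair. Another, 443 bases long and centred 40.4 kb from the start (chr10:120435890-120436333), had 25 and 23 in the Ctrl pair against 104 and 47 in the sKO pair. These are small scores, and sKO replicate 1 was the highest library in both. Peaks were unified over the libraries, so a weak peak may be listed through its sKO signal alone, which would favour this order. How many were listed in that way was not tested, so the sums and counts of weak peaks are a description only. The strongest peak, whose central sequence is shown above (chr10:120421936-120423452), had 349 and 367 in the Ctrl pair against 504 and 372 in the sKO pair, where sKO replicate 2 was 5 units above Ctrl replicate 2 (log2 fold change 0.27, limma adjusted p = 1).

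The share of the Hmga2 Pol II S2P score that lay near the gene start was lower in both sKO libraries than in both Ctrl libraries. The 2 peaks within 2.5 kb of the start, a distance chosen after the values were seen, summed to 121 and 135 in the Ctrl pair against 105 and 85 in the sKO pair, while the other 25 peaks summed to 1315 and 1314 in the Ctrl pair against 2136 and 1620 in the sKO pair. The share near the start was 8.43% and 9.32% in the Ctrl pair against 4.69% and 4.99% in the sKO pair. The groups did not overlap, and the exact permutation test gave p = 0.333 (two-sided), the smallest that 2 libraries against 2 allow. Of 3302 genes with peaks both near and away from the start, 30.0% had a lower share near the start in both sKO libraries, and 11.99% a higher one.

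Beyond the 3′ end of Hmga2 were 2 Pol II S2P peaks listed with no gene. The first, 0.938 kb past the end (chr10:120357215-120360337), had 398 and 430 in the Ctrl pair against 806 and 678 in the sKO pair. The second, 4.19 kb past it (chr10:120354197-120357089), had 275 and 389 in the Ctrl pair against 861 and 593 in the sKO pair. Both stood higher in both sKO libraries, with log2 fold changes of 0.84 and 1.12 (limma adjusted p = 1 and 0.807), and both passed on equal totals (0.70 with limma adjusted p = 0.00291 and 0.99 with limma adjusted p = 1.39e-05). They are outside the rule that defines the members, were singled out after their values were seen, and lie under the last H4K20me1 peak of Hmga2.

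**Figure D5:**
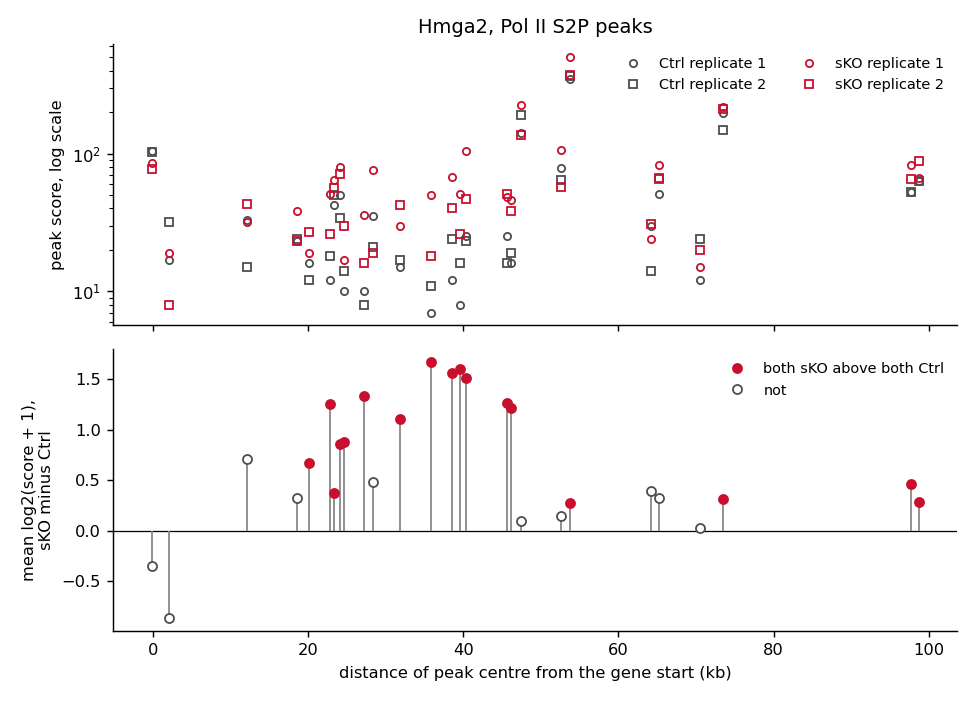
Pol II S2P peaks of Hmga2 by the distance of the peak centre from the gene start in kb. The upper panel gives the score of each peak in each library (log axis) and the lower panel the mean log2(score + 1) of sKO minus that of Ctrl, with filled circles where both sKO libraries were above both Ctrl libraries, which was so for 17 of 27 peaks; the 2 peaks near the start lie below 0.

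Cdk6 had a similar layout at lower scores. Its peak at the promoter shown above (chr5:3343592-3343792) had 14 and 25 in the Ctrl pair against 14 and 14 in the sKO pair, which overlapped. The other 5 peaks lay together in intron 5, from 153 to 161 kb past the start of the gene, and summed to 177 and 227 in the Ctrl pair against 327 and 244 in the sKO pair. The strongest of them (chr5:3494257-3495002), whose centre is printed above, had 106 and 125 in the Ctrl pair against 158 and 102 in the sKO pair, which overlapped (log2 fold change 0.14, limma adjusted p = 1). A weaker one (chr5:3497628-3497985) had 13 and 28 in the Ctrl pair against 67 and 50 in the sKO pair and was too low to be tested. The share at the promoter was 7.33% and 9.92% in the Ctrl pair against 4.11% and 5.43% in the sKO pair, which did not overlap (exact permutation p = 0.333, two-sided). A lower share near the start in both sKO libraries was seen in 30.0% of the 3302 genes with peaks near and away from it. The Cdk6 share rests on that 1 weak promoter peak. Of the intron 5 peaks, 2 lay in the H4K20me1 peak with the largest rise in Cdk6.

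In Rb1 the 2 strongest peaks differed in the order of their libraries. The peak in intron 2 (chr14:73313477-73314050) had 67 and 77 in the Ctrl pair against 76 and 62 in the sKO pair, which overlapped (log2 fold change -0.06, limma adjusted p = 1). The peak in intron 17 (chr14:73237625-73238218) had 70 and 96 in the Ctrl pair against 143 and 98 in the sKO pair, with no overlap by 2 units (log2 fold change 0.52, limma adjusted p = 1). The second lies over Lpar6, inside the H4K20me1 peak with the largest rise in Rb1. A peak just upstream of the Rb1 start, listed with no gene (chr14:73326011-73326384), had 41 and 45 in the Ctrl pair against 41 and 44 in the sKO pair, which overlapped. Rcbtb2 was the gene listed for a peak inside the 3′ end of Rb1 (chr14:73185301-73185821), with 44 and 63 in Ctrl against 104 and 70 in sKO, without overlap. Also listed with Rcbtb2, a peak across the end of Rb1 (chr14:73183289-73184176) had 56 and 139 against 165 and 105, which overlapped. Neither was called on either scale. Of the 37 member peaks for Pol II S2P, 24 (64.9%) touched an H4K20me1 peak, beside 71.4% of 34716 peaks listed with protein-coding genes.

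Other genes of the same pathway were taken from a list of 28 G1/S genes. For H4K20me1, 14 of them had a listed peak, and 12 of these 14 were called higher, near the share of all genes, with a median log2 fold change of 1.11 that equalled that of all genes. The largest was that of Ccnd3, the third D-type cyclin, with 131 and 129 in the Ctrl pair against 665 and 805 in the sKO pair (log2 fold change 2.48). On equal totals Ccnd3 was still called higher (1.56, limma adjusted p = 7.57e-11), unlike Ccnd1 and Ccnd2. Cdkn2c (0.61) and E2f7 (0.55) were also called higher on that scale, making 3 of the 14, beside 24.1% of all genes. The smallest were those of E2f3, an activating E2F, with 2261 and 2977 in the Ctrl pair against 2688 and 2858 in the sKO pair (log2 fold change 0.10), and of Tfdp1, the dimer partner of E2Fs (0.17). Neither was called, and on equal totals both were called lower (-0.83 and -0.76), beside 4.31% of all genes. The largest and the smallest changes of the list were thus outside the range of the 5 genes.

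For Pol II S2P, 22 of the 28 were tested and 0 were called. In none of the 22 were both sKO libraries above both Ctrl libraries, the order seen for Hmga2 and Cdk6 and for 9.41% of all genes tested. In 4 of the 22 (the S-phase drivers E2f1, Cdc25a and Myc and the repressor E2f8) both were below, beside 4.52% of all genes. E2f1 had the lowest log2 fold change, with 285 and 364 in the Ctrl pair against 254 and 226 in the sKO pair (-0.43, limma adjusted p = 1). Ccne2 had the highest (0.24). The median of the list was -0.13, against 0.09 over all genes. On equal totals 2 of the 22 were called lower, beside 73 of all 8531 genes tested. They were E2f1 (-0.56, limma adjusted p = 0.0626) and E2f2 (-0.54, limma adjusted p = 0.0264).

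Of 7 growth genes around Hmga2 and let-7, 5 were tested for H4K20me1 and 4 of these were called higher, beside 92.3% of all genes, from 0.68 for Igf2bp1 to 1.37 for Igf2bp2, both RNA-binding proteins. Lin28a, an inhibitor of let-7 maturation, had 306 and 354 in the Ctrl pair against 381 and 476 in the sKO pair (log2 fold change 0.37) and was not called. On equal totals none of the 5 was called higher (-0.25 for Igf2bp1 and 0.44 for Igf2bp2), beside 24.1% of all genes. Lin28a was called lower (-0.56, limma adjusted p = 0.00261), beside 4.31% of all genes. For Pol II S2P, 4 were tested and 0 called. Igf2bp3 (143 and 259 in Ctrl, 313 and 289 in sKO) and Nras (124 and 171 in Ctrl, 271 and 194 in sKO) were in the same order as Hmga2, every sKO score above every Ctrl score. That order was seen in 9.41% of all genes tested, and neither gene was called on equal totals (limma adjusted p = 0.162 and 0.169). Hmga1, the close relative of Hmga2, was not, with 235 and 267 in the Ctrl pair against 286 and 221 in the sKO pair (log2 fold change 0.01).

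The genes with the most similar values over the 8 libraries were found by Euclidean distance on log2(score + 1) among 5849 genes tested for both antibodies, as a description. They were Notch1, Lrp5 and Rbm27 for Cdk6 (distances of 0.280 to 0.365), Pam, Arnt2 and Lama2 for Rb1 (0.231 to 0.329), Wiz, Dhx16 and P2rx6 for Ccnd1 (0.394 to 0.497), and Pmepa1, Tulp4 and Pakap for Hmga2 (0.632 to 0.660), whose nearest gene was thus farther away than those of the other 3.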

How the data were processed

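The authors trimmed reads with Trimmomatic 0.39, aligned them with STAR 2.7.3a to mm10 (GRCm38), kept unique alignments, removed duplicates with Picard 2.21.7 and unified the peaks of each antibody; SICER 0.0.41 and MACS2 2.1.1 are also named in the submitters' processing notes. The deposited score is a whole number per peak and library, described as coverage normalised to Drosophila spike-in DNA, and it was not treated as a read count; the number of reads behind a score is unknown, so no counting interval is given. The deposited fraction gives how much of each peak lies in its listed gene, rounded to 1 decimal. The IgG libraries, 1 per genotype, were not used here. A gene's score is the sum over peaks with its identifier. With limma 3.58.1 in R 4.3.3 (eBayes, trend on), sKO was compared with Ctrl on log2(score + 1), which understates the change of low scores. The fits covered all autosomal genes or peaks with a mean above 50. They were checked on simulated data without a difference in scale between libraries, so the check does not cover that scale. P-values were adjusted by Benjamini-Hochberg over all features. Calls required an adjusted value under 0.1 with a difference beyond 0.5 on the log2 scale, in either direction. Named genes were the 5 members, every peak listed with them, the list genes called or not overlapping with the largest and the smallest change, and the 3 nearest genes; other peaks, near genes, and the groupings of peaks along Cdk6 and Hmga2 were picked after values were seen. The members and lists were chosen with earlier results of these data known. Sequences were read with pysam 0.24.0 from GRCm38.p6. Alternatives were equal library totals, quantile normalisation, a pseudocount of 10, no filter, a mean over 100, no trend, a replicate block, leaving out each library and only peaks with a fraction of at least 0.5 in the gene.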

Additional observations from a re-analysis of the deposited data

How the results depend on the processing

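The scale between libraries decided the H4K20me1 calls, and it was not checked against spike-in reads, which were not analysed here. On equal totals and under quantile normalisation, respectively, the log2 fold changes were -0.058 and -0.028 for Cdk6, 0.42 and 0.46 for Rb1, -0.011 and 0.018 for Hmga2, 0.12 and -0.23 for Ccnd1, and 0.11 and 0.12 for Ccnd2, and 0 and 0 of the 5 genes and 3 and 7 of their 22 peaks were called, all 3 higher on equal totals but 3 higher and 4 lower under quantile normalisation; 3308 and 1422 genes were called higher and 592 and 1531 lower. The first Cdk6 peak, in intron 2 (-0.37 and -0.50), and the Hmga2 intron 3 peak nearer the start (-0.38 and -0.61), both called higher as deposited, turned negative, short of the limit on equal totals and called lower under quantile normalisation (limma adjusted p = 5.84e-05 and 2.00e-04). With single libraries left out, ranges were 0.66 to 1.08 for Cdk6, 1.17 to 1.52 for Rb1, 0.87 to 0.97 for Hmga2, 0.92 to 1.17 for Ccnd1 and 0.74 to 1.34 for Ccnd2, with 1 to 5 of the genes, 10 to 22 of the peaks, 5249 to 13376 genes higher and 0 to 13 lower. For Pol II S2P the members were called under no alternative; genes called higher and lower were 108 and 73 on equal totals, 112 and 29 under quantile normalisation, 5 and 1 without a trend, and 1 and 0 without a filter, and leaving out single libraries gave 0 to 0 higher and 0 to 2 lower. Over the same fits, ranges were 0.23 to 0.63 for Cdk6, 0.07 to 0.52 for Rb1, 0.24 to 0.64 for Hmga2 and -0.34 to 0.27 for Ccnd1, whose sign turned at 0.05 and 0.27. Why these values moved was not tested.

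Whether libraries of the same replicate number belong together is not known. Across genes, deviations from the group means of same-numbered libraries correlated at 0.0407 for H4K20me1 and -0.0428 for Pol II S2P. This cannot exclude a pairing, since a shift of a whole library drops out of it. The median log2 difference of replicate 1 from replicate 2 was -0.405 in Ctrl and -0.116 in sKO for H4K20me1 genes. For Pol II S2P genes it was -0.397 in Ctrl and 0.48 in sKO. With the replicate block 12718 H4K20me1 genes were called higher and the 5 genes were still called (0.87 for Cdk6, 1.35 for Rb1, 0.92 for Hmga2, 1.05 for Ccnd1, 1.04 for Ccnd2), and 0 Pol II S2P genes were. Keeping only peaks with a fraction of at least 0.5 in the gene left Ccnd2 without a value. With 2 libraries per genotype and small Pol II S2P scores, a p that misses the limit does not show that genes did not differ.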
